A study of Mus musculus with 19 samples.

Results

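Purkinje cells of the cerebellum were compared with parvalbumin (PV) interneurons of the neocortex for the microRNAs (miRNAs) bound to Ago2. The comparison took 5 of the 19 libraries of the study, chosen by their labels, and all 528 miRNA names of the deposited table, of which 522 passed the filter on low values. Purkinje libraries (n = 3) came from the cerebellum of mice of C57BL/6 & black swiss background, with 3 pooled tissues in each. PV libraries (n = 2) came from the neocortex of mice of C57BL/6 & 129 background, with 4 pooled tissues in each. Mice of both groups were at postnatal day 56, and Ago2 was precipitated from both with anti-myc, which binds the tagged Ago2 of the labelled cells. Whole Cerebellum (C57BL/6 & black swiss, n = 3) and whole Neocortex (C57BL/6 & BALB/c, n = 3), 1 tissue in each library at the same age, were precipitated with anti-Ago2 and served as the reference for the regions. Levels are also given for 3 other groups of the neocortex at that age, precipitated with anti-myc: Camk2a (C57BL/6 & BALB/c, 1 tissue a library, n = 3), Gad2 (n = 3) and SST (n = 2), the last 2 of C57BL/6 & 129 background with 4 pooled tissues. Because the cell types also differed in region, in strain background and in how many tissues were pooled, the contributions of these cannot be told apart. The labels name neither the driver that switches on the tag nor separate animals, and the p-values therefore measure only the spread between libraries, which may be technical.

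A miRNA is cut from 1 strand of a hairpin precursor, loaded into an Argonaute protein such as Ago2, and guides it to messenger RNAs that pair with its seed, bases 2 to 8. miRNAs that share a seed can act on the same messages, and the other strand of the hairpin, marked by a star in older names, is usually degraded. Purkinje cells are the large GABAergic output neurons of the cerebellar cortex, and neocortical PV interneurons are fast-spiking GABAergic cells that inhibit their neighbours. Both contain parvalbumin, a calcium-binding protein. A table of miRNAs holds no marker messenger RNAs, so the labels could be set only against miRNAs of other cell types, given further on.

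Sequences were taken from RefSeq (GRCm38.p6) for 394 of the 528 names, and those on which the results turn are shown 5′ to 3′ with the seed in capitals. Among miRNAs averaging 100 RPM or more over both groups, the 8 largest losses in Purkinje cells were of miRNAs with unrelated seeds, all except miR-27a and miR-130a being members of a list of neuron-enriched miRNAs. That list was drawn up with earlier results of these data known, so this membership is no test of it.
miR-218: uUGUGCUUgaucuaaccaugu
miR-335-5p: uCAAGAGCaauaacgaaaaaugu
miR-137: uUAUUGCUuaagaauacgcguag
miR-27a: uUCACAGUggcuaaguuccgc
miR-153: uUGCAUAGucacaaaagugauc
miR-129-2-3p: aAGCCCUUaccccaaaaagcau
miR-149: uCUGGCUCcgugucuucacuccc
miR-130a: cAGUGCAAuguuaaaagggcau

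Members of the miR-15/16 family carry the seed AGCAGCA, and 4 of them were lower in Purkinje cells while miR-15b was higher.
miR-195: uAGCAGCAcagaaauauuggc
miR-497: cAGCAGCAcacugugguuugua
miR-15a: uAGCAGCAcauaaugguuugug
miR-16: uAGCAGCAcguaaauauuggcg
miR-15b: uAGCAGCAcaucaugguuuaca

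The largest gains with a matched sequence were, apart from let-7i, of miRNAs whose seed no other matched name shared. miR-133a, near-identical in sequence to miR-133b and also among the gains, had no matched sequence and was left out of this count.
miR-676: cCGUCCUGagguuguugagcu
miR-133b: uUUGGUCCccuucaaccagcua
miR-193b: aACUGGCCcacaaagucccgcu
miR-138: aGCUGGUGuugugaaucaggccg

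Within the let-7 seed GAGGUAG and the seed ACCCGUA of miR-99 and miR-100 some members passed the test and others did not, a difference between members that was not itself tested.
let-7i: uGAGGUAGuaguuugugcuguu
miR-98: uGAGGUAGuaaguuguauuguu
let-7g: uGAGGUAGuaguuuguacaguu
miR-100: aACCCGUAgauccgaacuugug
miR-99a: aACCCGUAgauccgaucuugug

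In all 3 Purkinje libraries the reads numbered 2063132, 2497552 and 3378889, against 10739153 and 11438142 in the PV libraries. A count of 3 reads stood at 0.888 to 1.45 RPM (reads for each 1000000 reads of miRNAs) in Purkinje and at 0.262 to 0.279 RPM in PV libraries, so values under these floors were not resolved. Purkinje libraries held 445 to 447 detected names and PV libraries 494 to 495. Each of the 5 libraries had its highest correlation of log2 levels with a library of its own group. An RPM value is a share of the miRNA pool of a library, and fewer cells of a type and less RNA per cell cannot be told apart.

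Nearly as many miRNAs differed between the cell types as did not. With limma, 239 of 522 tested miRNAs (45.8%) passed an adjusted p of 0.05, 95 higher (18.2%) and 144 lower (27.6%) in Purkinje cells. Of these, 210 differed by at least 2-fold and 48 by at least 10-fold, of which 14 were higher and 34 lower. Among the 48 were 7 at 0 reads in Purkinje and 1 at 0 in PV libraries, whose fitted fold depends on the value added before the log. The 3 Purkinje values did not overlap the 2 PV values for 341 of 522 miRNAs (65.3%). The excess of lower calls was smaller or absent with TMM scaling, edgeR and DESeq2. It stayed with only the 5 libraries fitted (85 higher, 127 lower) and without Purkinje replicate 2 (93 higher, 144 lower). Higher calls made up 39.7% of calls as deposited and 43.6% after division by TMM factors (105 higher, 136 lower), which changes the scaling alone, but 49.8% with edgeR (128 higher, 129 lower) and 52.2% with DESeq2 (131 higher, 120 lower), while the median log2 change of all miRNAs moved from -0.22 to -0.11, 0.00 and 0.01 in turn. No call changed sign in any of these fits.

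**Figure D1:**
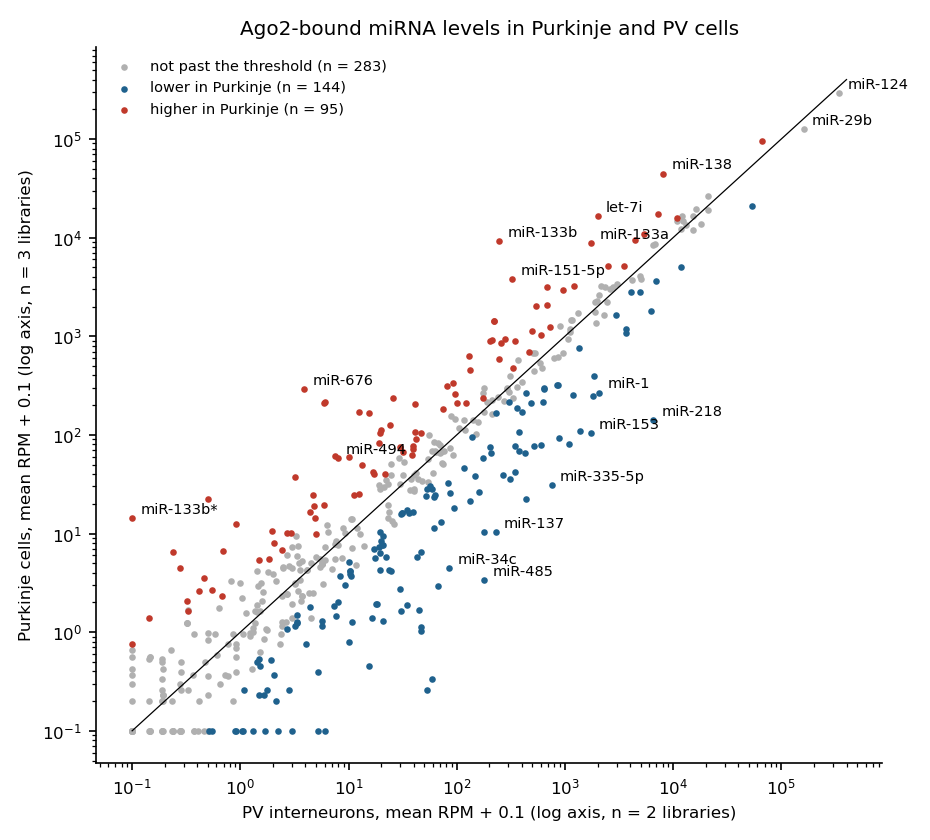
Each point is 1 miRNA, with its mean level in PV cells (x axis, n = 2 libraries) against that in Purkinje cells (y axis, n = 3 libraries), both as RPM + 0.1 on log axes; the line marks equal levels. The most abundant miRNAs lie near the line, while miR-133b, miR-676 and miR-138 lie above it and miR-218, miR-335-5p and miR-153 below.

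The top of both pools was much the same. The 10 most abundant miRNAs held 67.9% of the Purkinje pool and 72.9% of the PV pool, and 8 names stood in both sets. miR-124, a neuronal miRNA that represses messages of other cell types, was at 285643, 301890 and 290083 RPM in Purkinje libraries and at 362742 and 321616 RPM in PV libraries. The Purkinje values lay below the PV values, but the log2 change of -0.22 (95% interval -0.59 to 0.14, adjusted p = 0.31) did not pass. miR-29b, which accumulates as neurons mature, was at 127415, 120157 and 133052 RPM against 161740 and 160105 RPM, and likewise did not pass (log2 change -0.34, interval -0.72 to 0.04, adjusted p = 0.128). miR-9, which shapes the growth of neural precursors, was 1.45-fold higher in Purkinje cells (95354 ± 7801 RPM, SD, n = 3, against 65596 ± 2543 RPM, n = 2; adjusted p = 0.00754). That call was lost without PV replicate 2 (adjusted p = 0.0656). miR-22, miR-26a, miR-29c and miR-376a were the other shared names without a call, with folds of 1.08 to 1.25, though edgeR and DESeq2 called miR-22 higher (adjusted p = 0.0407 and 0.0224). miR-29a fell 2.52-fold, from 53317 ± 4033 RPM in PV to 21139 ± 1752 RPM in Purkinje cells (adjusted p = 1.08e-06). Only the Purkinje set held miR-138 and miR-125b-5p, and only the PV set let-7g and miR-181a; the last 2 did not pass the test between the groups (adjusted p = 0.0995 and 0.173).

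The miRNA with the largest loss among those of at least 100 RPM was miR-218, which lies in introns of the axon guidance genes Slit2 and Slit3 on chromosomes 5 and 11 (GENCODE M21, GRCm38). It was at 142, 167 and 114 RPM in the Purkinje libraries and at 6559 and 6444 RPM in the PV libraries. The groups were far apart, with a 46.7-fold lower level in Purkinje cells (log2 change -5.54, SE 0.22, adjusted p = 8.55e-14). PV cells were close to Camk2a excitatory neurons (6004 ± 620 RPM) in this miRNA, while Gad2 cells (2094 ± 508 RPM) and SST cells (1245 ± 270 RPM) of the neocortex lay between. Its star arms miR-218-1* and miR-218-2*, each specific to 1 hairpin, had 0 reads in all Purkinje libraries and 4.38 to 6.24 RPM in PV libraries. Against a floor of 3 reads over the Purkinje group they were at least 13.4-fold and at least 15.7-fold lower.

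miR-335-5p, from an intron of the imprinted gene Mest on chromosome 6, was at 30.1, 30.8 and 31.4 RPM in Purkinje libraries and at 729.9 and 777 RPM in PV libraries. This was a 24.4-fold lower level with little spread in either group (adjusted p = 1.53e-12). miR-137, a miRNA tied to synaptic genes and encoded on chromosome 3 in an exon of the noncoding transcript Gm26871, was at 11.1, 8.01 and 11.5 RPM against 246 and 212 RPM, and fell 22.4-fold (adjusted p = 1.86e-11). PV cells had little of it too when set beside Camk2a cells (5013 ± 556 RPM) or SST cells (2675 ± 447 RPM). miR-27a was at 22.8, 31.6 and 12.4 RPM against 462 and 406 RPM, and fell 20.8-fold. Purkinje replicate 3 was the lowest for miR-27a, but every Purkinje value was far below both PV values.

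miR-153, from an intron of Ptprn2, a gene of secretory vesicles on chromosome 12, was at 112, 105 and 95.3 RPM against 1854 and 1597 RPM (16.5-fold lower, adjusted p = 1.86e-11). miR-129-2-3p, whose hairpin lies in an intron of the noncoding transcript Mir670hg on chromosome 2, was at 104, 74.1 and 62.2 RPM against 982 and 1191 RPM (13.8-fold lower). miR-149, from an intron of the glypican gene Gpc1 on chromosome 1, was at 136, 129 and 64.5 RPM against 1267 and 1488 RPM (13.2-fold lower). These, like the others named here, were chosen among miRNAs without overlap. miR-130a (9.27-fold), miR-195 (8.96-fold), miR-330 in an exon of Eml2 (8.35-fold), miR-15a (7.89-fold) and miR-1 (7.73-fold) completed the 12 named losses, with adjusted p from 2.41e-10 to 7.56e-08. Below 100 RPM, chosen after their values were seen, miR-490-5p and miR-490-3p from an intron of the muscarinic receptor gene Chrm2 had the largest losses of all. They held at most 0.485 RPM in any Purkinje library, under the floor, and 52.98 to 61.99 RPM in PV libraries.

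Among miRNAs averaging 100 RPM or more the gains were led by miR-676, from an intron of Eda on chromosome X. It was at 219, 279 and 371 RPM in Purkinje libraries and at 3.91 and 3.67 RPM in PV libraries, a 72.8-fold higher level (log2 change 6.19, SE 0.30, adjusted p = 1.49e-12). Its star arm rose with it, from 0.405 ± 0.046 RPM in PV to 22.5 ± 6.70 RPM in Purkinje cells. The PV level was also far below those of SST (82.4 ± 15.9 RPM) and Camk2a cells (79.4 ± 1.26 RPM). miR-138, known for limiting the size of dendritic spines, was at 43287, 36716 and 53529 RPM against 7643 and 8538 RPM, and rose 5.44-fold (adjusted p = 1.08e-07). It was the fourth most abundant miRNA of Purkinje cells, and both of its hairpins contributed: miR-138-1* (chromosome 9) rose 11.1-fold and miR-138-2* (chromosome 8) 3.79-fold.

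let-7i, a let-7 family member that stands alone on chromosome 10, was at 15972, 15783 and 17443 RPM in Purkinje libraries and at 1821 and 2194 RPM in PV libraries. The Purkinje values were nearly equal, and the level was 8.20-fold higher (adjusted p = 7.33e-11). miR-151-5p was at 3716, 4078 and 3508 RPM against 277 and 371 RPM, 11.7-fold higher (adjusted p = 1.16e-11), and its partner arm miR-151-3p was 5.37-fold higher. miR-193b, clustered with miR-365-1 on chromosome 16, was at 233, 257 and 223 RPM against 22.7 and 29.0 RPM, a 9.21-fold gain. miR-1937a (35.9-fold) and miR-1937b (37.3-fold), names with nearly equal values that count 1 measurement more than once, were at 178 to 253 RPM in Purkinje libraries against 4.02 to 7.64 RPM. miR-486 and miR-3107 were a second such pair, 6.44-fold higher, and miR-532-5p rose 5.03-fold.

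**Figure D2:**
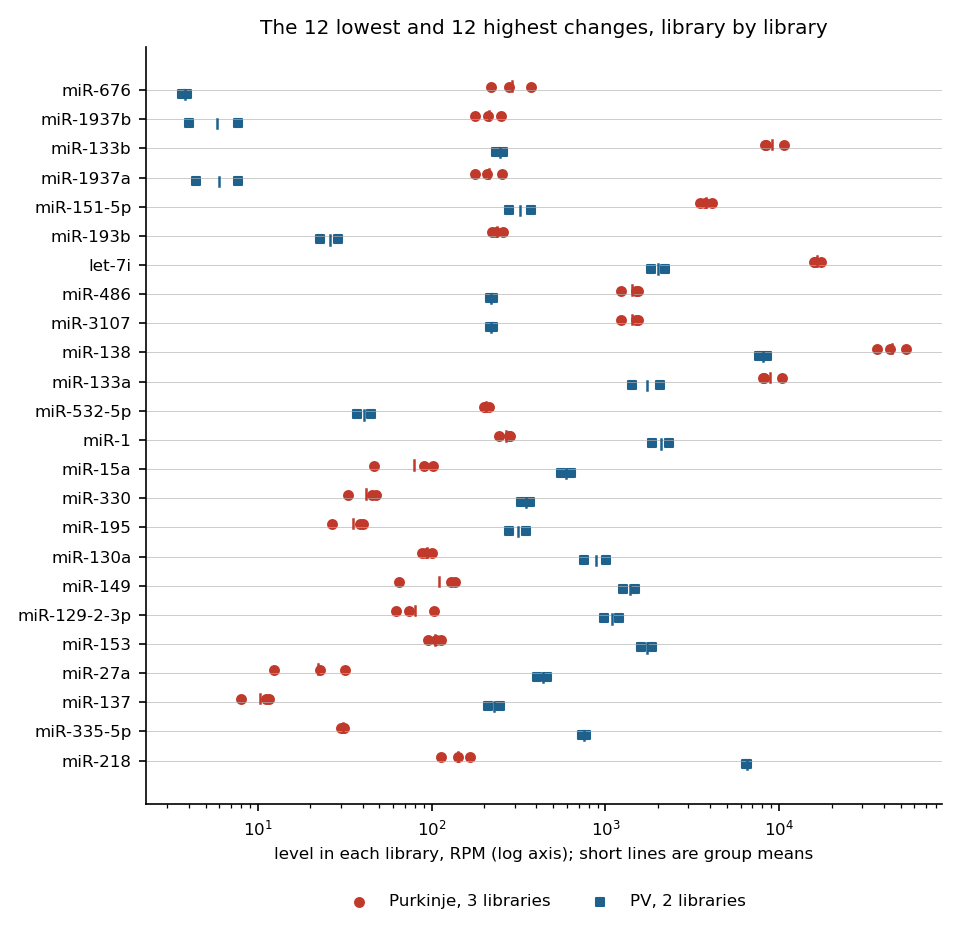
The level of the 12 miRNAs with the largest gains and the 12 with the largest losses is plotted in each library as RPM on a log axis, with circles for 3 Purkinje libraries, squares for 2 PV libraries and short lines for group means. The circles and squares are apart in each row because only miRNAs without overlap were chosen, and the width of each gap shows the size of the change.

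As a group the neuron-enriched miRNAs were divided. Together they held 45.1% ± 0.334 of the Purkinje pool and 44.8% ± 3.15 of the PV pool. Their list was drawn up with earlier results of these data known, so its counts and medians only describe it. Of 40 tested arms 5 were higher and 17 lower in Purkinje cells (55.0% called, against 45.8% of all miRNAs), with a median log2 change of -0.74 against -0.22 for all tested miRNAs. Without Purkinje replicate 2 the list median was -0.28. With members at 0 in a group set to the 3-read floor the medians were -0.32 and -0.08, and with edgeR the list median was -0.14 (6 higher, 16 lower). Beside the losses of miR-218, miR-335, miR-137, miR-153, miR-129 and miR-149 stood miR-7b, which fell 6.2-fold from 24.7 ± 2.28 to 4.04 ± 1.41 RPM, and miR-384-5p, which fell 3.10-fold from 3668 ± 9.35 to 1185 ± 87.7 RPM. The 5 higher arms were those of the miR-138 hairpins, miR-9 and miR-7a-2*. miR-128, which was at 2206 ± 216 RPM in Purkinje and 1888 ± 155 RPM in PV cells, did not pass (log2 change 0.22, interval -0.23 to 0.68), nor did miR-7a (log2 change -0.11, interval -0.79 to 0.58).

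miRNAs known to respond to neuronal activity were lower in Purkinje cells in 5 of 6 tested arms, against 27.6% of all miRNAs (median log2 change -1.44). Their sum was 214 ± 10.5 RPM in Purkinje and 757 ± 30.1 RPM in PV cells. The whole tissues differed in the same direction, at 258 ± 50.7 RPM in Cerebellum and 2752 ± 608 RPM in Neocortex. Gad2 (1208 ± 162 RPM), SST (2113 ± 42.9 RPM) and Camk2a cells (3606 ± 330 RPM) lay above PV cells. miR-134, which acts on a kinase of dendritic spines, was at 65.9, 69.3 and 98.0 RPM against 336 and 348 RPM, 4.47-fold lower (adjusted p = 7.25e-07). miR-132, induced by CREB, was at 35.4, 45.6 and 32.9 RPM against 141 and 156 RPM, 3.93-fold lower. Its clustered partner miR-212-3p was 2.27-fold lower and miR-132* 3.06-fold. The groups did not overlap in any of the 6 arms, as in 65.3% of all miRNAs. The uncalled arm, miR-134*, had 0 reads in all Purkinje libraries and only 2 and 1 in the deeper PV libraries. Its lack of overlap was therefore not resolved.

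The arms of miR-1 and miR-133, first known from muscle, did not move together. miR-133b was at 8326, 10717 and 8376 RPM in Purkinje libraries and at 234 and 258 RPM in PV libraries, 36.9-fold higher (log2 change 5.20, SE 0.25, adjusted p = 1.49e-12). miR-133a was at 8020, 10404 and 8170 RPM against 1429 and 2053 RPM, 5.14-fold higher. miR-1 was instead 7.73-fold lower, at 279.7, 283 and 243 RPM against 1849 and 2323 RPM. In PV cells miR-133a thus stood near miR-1, and in each Purkinje library near miR-133b. The names miR-133a and miR-133b are near-identical in sequence, and the sources used here do not say how reads that match both were counted, so their main arms are uncertain.

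The star arms of these hairpins differ, and were looked at after the values of the main arms were seen. miR-133b* had 23, 33 and 63 reads in the Purkinje libraries and 0 in both PV libraries, and was at least 106-fold higher in Purkinje cells against a floor of 3 reads over the PV group. miR-133a* had 2, 2 and 1 reads in the Purkinje libraries against 84 and 141 in PV. miR-133b* therefore made up 94.9% ± 3.26 (SD, n = 3) of the star reads of both hairpins in Purkinje cells, 119 of 124 reads, and 0 of 225 reads in PV cells. DESeq2 alone did not call miR-133b* (adjusted p = 0.163). The hairpin of miR-133b lies on chromosome 1 beside Mir206, in an exon of the noncoding transcript Gm28653.

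In the let-7 family, which restrains growth in maturing cells, 5 of 21 tested arms were higher in Purkinje cells and 3 lower (median log2 change 0.19), a called share of 38.1% against 45.8% of all miRNAs. The counts were 2 and 1 without PV replicate 1, 3 and 4 without Purkinje replicate 1, 6 and 1 without PV replicate 2, and 7 and 1 with edgeR. let-7i led, followed by miR-98, from an intron of Huwe1 on chromosome X, at 2057 ± 103 against 688 ± 24.8 RPM (2.99-fold higher, adjusted p = 9.36e-07). let-7a (1.46-fold) and let-7b (1.45-fold) rose less, and both calls were lost without PV replicate 1 (adjusted p = 0.275 and 0.341) or Purkinje replicate 1 (adjusted p = 0.0671 for each). let-7a was also lost without Purkinje replicate 2 (adjusted p = 0.0553) and let-7b without replicate 3 (adjusted p = 0.155). let-7g did not pass at 13756 ± 461 against 18009 ± 1606 RPM (adjusted p = 0.0995). Of the 3 lower arms, let-7a-1* and let-7c-2* had the same reads in every one of the 5 libraries (39, 61 and 15 in Purkinje, 378 and 311 in PV). They therefore count 1 measurement more than once. Both calls were lost with edgeR (adjusted p = 0.0662 and 0.0661), with DESeq2 (adjusted p = 0.0598 and 0.0595) and without Purkinje replicate 3 (adjusted p = 0.274 for each). The family held 9.63% ± 0.205 of the Purkinje pool and 6.91% ± 1.01 of the PV pool. All 3 Purkinje libraries exceeded both PV libraries, giving the smallest p that 3 against 2 libraries allow (exact two-sided permutation test, p = 0.2).

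The miR-29 family, which rises in the maturing brain and acts on collagens and apoptotic genes, held 16.8% ± 0.171 of the Purkinje pool against 23.6% ± 0.338 of the PV pool (exact permutation p = 0.2). Of 7 tested arms 3 were lower and 1 higher (57.1% called, against 45.8% of all miRNAs). The lower arms were miR-29a, miR-29a* (3.50-fold) and miR-29b-1* (3.30-fold), all from 1 cluster on chromosome 6. The call of miR-29b-1* was lost without Purkinje replicate 2 (adjusted p = 0.0724) and without either PV library (adjusted p = 0.136 and 0.0508). miR-29c* of the cluster on chromosome 1 was 1.45-fold higher (adjusted p = 0.0124), a call lost without either PV library (adjusted p = 0.0746 and 0.0655). miR-29b comes from both clusters.

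In the miR-99 and miR-100 family the calls were divided as well. miR-100, on chromosome 9 with let-7a-2 as a neighbour, was at 862, 906 and 915 RPM against 203 and 205 RPM, 4.39-fold higher (adjusted p = 1.35e-10). miR-99a, with the same seed but on chromosome 16, was at 995, 1308 and 1003 RPM against 1037 and 1174 RPM and did not pass (log2 change -0.01, interval -0.39 to 0.36). miR-125b-5p was 2.38-fold higher at 17528 ± 3914 against 7223 ± 132 RPM. Of 11 tested arms in the list of miR-99, miR-100 and miR-125 5 were higher and 2 lower (median log2 change 0.13). The called share was 63.6%, against 45.8% of all miRNAs.

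The miR-15/16 family, known for restraining the cell cycle, had 7 of 12 tested arms lower and 2 higher in Purkinje cells. The called share was 75.0%, against 45.8% of all miRNAs. The median log2 change was -2.22 (-1.58 with members at 0 set to the floor). miR-16, its most abundant member, was at 1431, 1143 and 653 RPM against 2975 and 4428 RPM, 3.55-fold lower (adjusted p = 2.78e-06). miR-195 was at 40.2, 38.8 and 26.6 RPM against 279 and 347 RPM, and miR-497, its neighbour on chromosome 11, at 27.1, 28.0 and 23.1 RPM against 153 and 165 RPM. Both were lower, 8.96-fold and 6.10-fold. miR-15b, from an intron of Smc4 on chromosome 3, went the other way, at 137, 139 and 60.1 RPM against 18.4 and 21.5 RPM (5.22-fold higher, adjusted p = 7.26e-06). Its star arm was higher too, but on only 3, 5 and 4 reads in Purkinje and 3 and 2 in PV libraries, near the 3-read floor.

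Of the miR-17-92 cluster and its paralogs, known as promoters of proliferation, 6 of 18 arms were higher and 1, miR-92b, was lower (median log2 change 0.51), a called share of 38.9% against 45.8% of all miRNAs. Only 3 were higher without PV replicate 1 and 4 without Purkinje replicate 1. The loss of miR-92b was not called with edgeR (adjusted p = 0.0505), without Purkinje replicate 3 (adjusted p = 0.174), or without either PV library (adjusted p = 0.196 and 0.0562). miR-93, in Mcm7 on chromosome 5, was at 935, 719.9 and 1131 RPM against 256 and 299 RPM, 3.30-fold higher (adjusted p = 8.23e-06). miR-92a was 3.03-fold and miR-20a 1.95-fold higher, but the call of miR-20a was lost without PV replicate 1 (adjusted p = 0.236) or Purkinje replicate 1 (adjusted p = 0.0838). The list as a whole held 0.117% ± 0.0178 of the Purkinje pool and 0.0415% ± 0.00453 of the PV pool (exact permutation p = 0.2).

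All 6 tested arms of the miR-34 family, which is induced by p53, were lower in Purkinje cells, against 27.6% of all miRNAs. Their median log2 change was -3.85, or -3.20 with members at 0 set to the floor. Their sum was 5026 ± 530 RPM in Purkinje and 12026 ± 164 RPM in PV cells. It was 3996 ± 1171 RPM in Gad2, 1843 ± 101 RPM in SST and 1052 ± 163 RPM in Camk2a cells. In the tissues it was 1121 ± 110 RPM (Cerebellum) and 349 ± 149 RPM (Neocortex). miR-34a, by far the most abundant, was at 5625, 4766 and 4660 RPM against 11772 and 11981 RPM, 2.38-fold lower (adjusted p = 0.000903). miR-34c was at 4.36, 4.00 and 4.74 RPM against 75.4 and 95.6 RPM, 19.1-fold lower, and miR-34b-5p from the same cluster was 18.8-fold lower. miR-34b-3p and miR-34c* had 0 reads in all Purkinje libraries, and were at least 7.62-fold and at least 2.47-fold lower against a floor of 3 reads over that group. miR-221, which acts on cell cycle inhibitors, was 7.56-fold lower at 5.74 ± 1.96 against 42.6 ± 6.87 RPM. Its clustered relative miR-222 also fell (adjusted p = 1.08e-07), with only 3 reads in each Purkinje library and 10.6 ± 2.26 RPM in PV cells. In the miR-23/27/24 clusters miR-27a and its neighbour miR-23a on chromosome 8 fell, the latter 6.99-fold from 423 ± 8.39 to 65.0 ± 27.3 RPM, and miR-24 fell 1.78-fold. The other 8 arms of that list did not pass, so 27.3% of its arms were called, against 45.8% of all miRNAs.

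miRNAs of the imprinted Dlk1-Dio3 domain on chromosome 12, the largest miRNA cluster of placental mammals, moved in both directions. Together they held 6.41% ± 0.503 of the Purkinje pool and 7.07% ± 0.525 of the PV pool (exact permutation p = 0.4). With miR-124 and miR-29b left out of the total, the difference moved from -0.669 to -3.19 percentage points. Of 27 proximal arms 7 were higher and 6 lower (48.1% called, against 45.8% of all miRNAs), with a median log2 change of -0.16 that became 0.15 with edgeR and 0.04 without Purkinje replicate 1. miR-433 was at 10277, 10374 and 11949 RPM against 5015 and 5664 RPM, 2.03-fold higher (adjusted p = 0.000294), and miR-770-5p, in an exon of Meg3, was 3.31-fold higher. miR-127 was instead at 1572, 1650 and 2187 RPM against 6491 and 6022 RPM, 3.51-fold lower (adjusted p = 1.88e-07). miR-433 and miR-127, whose hairpins are neighbours, thus moved apart, and in neither did the groups overlap.

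Of 66 distal arms 6 were higher and 26 lower (48.5% called, against 45.8% of all miRNAs). The median log2 change was -0.73, and edgeR gave 9 higher and 23 lower. The counts were 3 higher and 17 lower without PV replicate 1 and 5 and 15 without PV replicate 2. The largest loss was of miR-485, in an exon of Mirg, at 2.42, 2.40 and 5.03 RPM against 155 and 201 RPM (55.5-fold, adjusted p = 6.68e-06), and miR-544-5p fell 7.32-fold. The largest gain of a main arm above 10 RPM was of miR-494, at 62.0, 58.5 and 53.6 RPM against 7.54 and 8.13 RPM (7.32-fold, adjusted p = 1.06e-06). miR-376c was 4.35-fold higher at 921 ± 63.0 against 211 ± 9.04 RPM, while miR-376a, encoded nearby, did not pass (log2 change 0.11, interval -0.33 to 0.55).

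The other lists are given by their counts, to be read against 18.2% higher and 27.6% lower over all miRNAs. In the list of miR-28, miR-151 and miR-708 3 of 6 arms were higher and none lower, all 3 from miR-151 or miR-28. The miR-30 family with miR-384 had 1 arm higher, miR-30d (2.14-fold), and 4 lower of 13. The miR-181 family had 2 higher and 2 lower of 10 (4 and 2 without Purkinje replicate 2, 1 and 0 without PV replicate 2), with a median log2 change of -0.18 that became 0.22 with edgeR; the loss of miR-181b (1.45-fold) was not called with edgeR (adjusted p = 0.155), DESeq2 (adjusted p = 0.173) or without PV replicate 2 (adjusted p = 0.118). Of the Sfmbt2 intron cluster, whose members are near-identical, 1 of 47 arms was higher and 6 lower, but 0 and 2 without either PV library and 2 and 2 without Purkinje replicate 3. None of the 5 miR-26 arms, the 4 arms of miR-192 and miR-194 or the 2 miR-200 arms passed in limma, in edgeR or in DESeq2, though 1 miR-26 arm was lower without Purkinje replicate 2. miR-182, the 1 tested arm of the miR-183 cluster, rested on PV replicate 1 (90.2 RPM against 2.71 RPM in replicate 2), and without it the log2 change moved from -4.33 to -1.82 and the call was lost (adjusted p = 0.184).

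**Figure D3:**
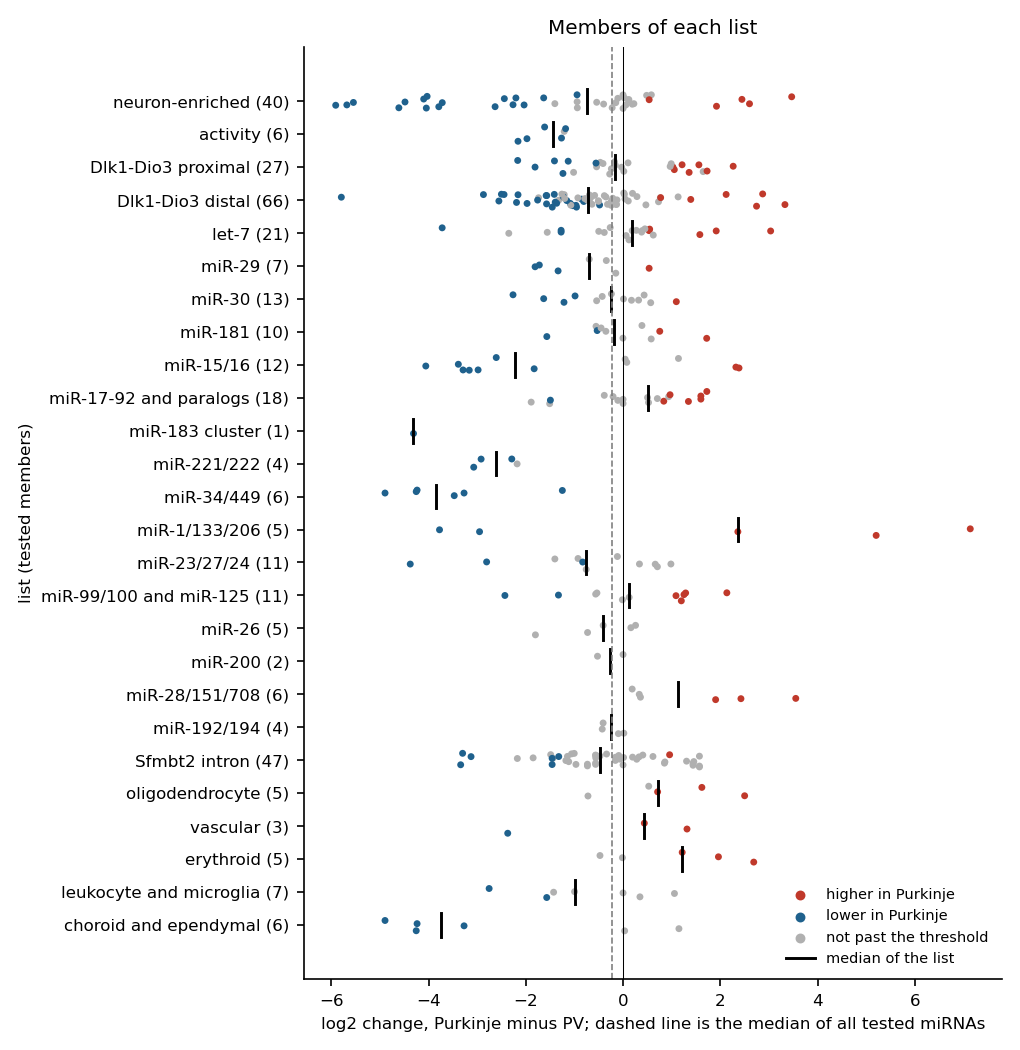
Each point is a tested member of a list, placed by its log2 change (Purkinje minus PV); red marks members higher and blue members lower in Purkinje cells, gray those that did not pass, black bars the list medians and the dashed line the median of all tested miRNAs. All members of the miR-34 list lie left of 0, while neuron-enriched and Dlk1-Dio3 distal members spread to both sides.

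miRNAs that mark other cell types were counted in the same libraries. The oligodendrocyte list (miR-219 and miR-338) had 3 of 5 arms higher in Purkinje cells, against 18.2% of all miRNAs, with a summed level of 2743 to 3249 RPM against 907 to 1114 RPM in PV cells. Without PV replicate 1 the call of miR-338-5p was lost (adjusted p = 0.0914). Nearly all of the sum was miR-338-3p, at 2946 ± 287 against 961 ± 149 RPM. The called arm with the largest change was miR-219-5p, with 166, 159 and 123 reads in Purkinje libraries and 110 and 112 in the deeper PV libraries. The list stood at 3478 ± 103 RPM in whole Cerebellum and 2814 ± 626 RPM in whole Neocortex. The erythroid list had 3 of 5 arms higher, against the same 18.2%, with a sum of 1279 to 1585 RPM against 234 to 247 RPM. This sum was mostly miR-486, while the defining miR-451 was at 40.2 ± 7.05 and 17.3 ± 3.64 RPM, against 2108 ± 279 RPM in whole Cerebellum and 2431 ± 1126 RPM in whole Neocortex. Of the vascular markers miR-126-3p and miR-126-5p were higher and miR-143 lower, with sums of 323 to 424 RPM and 295 to 330 RPM, against 6026 ± 258 and 8026 ± 171 RPM in the whole tissues. The call of miR-126-3p was lost without Purkinje replicate 2 or 3 (adjusted p = 0.124 and 0.0511) and without either PV library (adjusted p = 0.278 and 0.0574), and that of miR-451 without PV replicate 2 (adjusted p = 0.0727).

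Leukocyte and microglia markers were lower in 2 of 7 arms (28.6%), near the 27.6% of all miRNAs. Their sums were 3.26 to 30.8 RPM in Purkinje and 21.7 to 25.5 RPM in PV libraries. The groups overlapped here: Purkinje replicate 2 held 14.4 RPM of miR-146a where replicates 1 and 3 held 0.485 and 0.296 RPM, against 10.8 and 9.27 RPM in PV libraries. The loss of miR-146a was not called with edgeR (adjusted p = 0.185) or DESeq2 (adjusted p = 0.36), and was lost on leaving out Purkinje replicate 1 or 3 or either PV library (adjusted p = 0.0574 to 0.087). Choroid and ependymal markers were lower in 4 of 6 arms, against 27.6% of all miRNAs. Their sums were 10.95 to 18.9 RPM against 118 to 137 RPM, and 1658 ± 242 RPM in whole Cerebellum. These 4 arms were those of miR-34b and miR-34c, while miR-204, the defining miRNA of choroid plexus, was at 8.27 ± 3.45 and 7.55 ± 0.783 RPM. The part of these other cells in the gains of miR-338, miR-486 and miR-126 and in the losses of miR-34b, miR-34c and miR-143 was not tested.

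The change between the cell types was then set against the change between the regions they come from, as the difference (Purkinje - PV) - (Cerebellum - Neocortex). No library is shared between these contrasts. The differences passed for 239 of 522 miRNAs (45.8%), 130 higher (24.9%) and 109 lower (20.9%). Cerebellum and Neocortex themselves differed for 290 of 522 (55.6%), 102 higher (19.5%) and 188 lower (36%) in Cerebellum. Of 160 miRNAs called in both contrasts, 98 had the same direction and 62 the opposite one.

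Among the negative differences miR-195 and miR-497 stood out. miR-195 was at 4111 ± 177 RPM in whole Cerebellum and 341 ± 50.7 RPM in Neocortex, but at 35.2 ± 7.48 RPM in Purkinje and 313 ± 47.6 RPM in PV cells. The cell type change therefore ran opposite to the tissue change (log2 difference -6.76, SE 0.33, adjusted p = 1.39e-12), and that of miR-497 likewise (-6.59). miR-129-2-3p was at 9812 ± 892 and 3889 ± 1072 RPM in the tissues, so it too was higher in cerebellum yet lower in Purkinje cells (-5.16). For miR-130a (-4.99) and miR-326, from an intron of Arrb1 (-5.24), the same reversal held. miR-218 differed little between the tissues, at 3597 ± 223 and 2711 ± 509 RPM (-5.97).

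miR-676 had the highest positive difference (7.05, SE 0.40, adjusted p = 1.24e-11), with 42.3 ± 7.63 and 76.3 ± 5.45 RPM in the tissues. miR-708 was close to equal in the cell types, at 1468 ± 191 and 1153 ± 253 RPM, although it was at 120.4 ± 11.8 RPM in Cerebellum and 1888 ± 677 RPM in Neocortex (4.26). In the same way miR-128, miR-376a and miR-139-5p, at least 4-fold lower in Cerebellum than in Neocortex, gave no call between Purkinje and PV cells, with log2 changes of 0.22, 0.11 and 0.17. Other miRNAs changed between the cell types about as they did between the regions. For miR-133b the difference was -0.19 (adjusted p = 0.701), with 499 ± 57.4 RPM in Cerebellum and 12.1 ± 3.57 RPM in Neocortex. miR-137 (-0.19, adjusted p = 0.701), miR-133a (-0.06, adjusted p = 0.871) and miR-1 (0.17, adjusted p = 0.757) gave no call either.

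**Figure D4:**
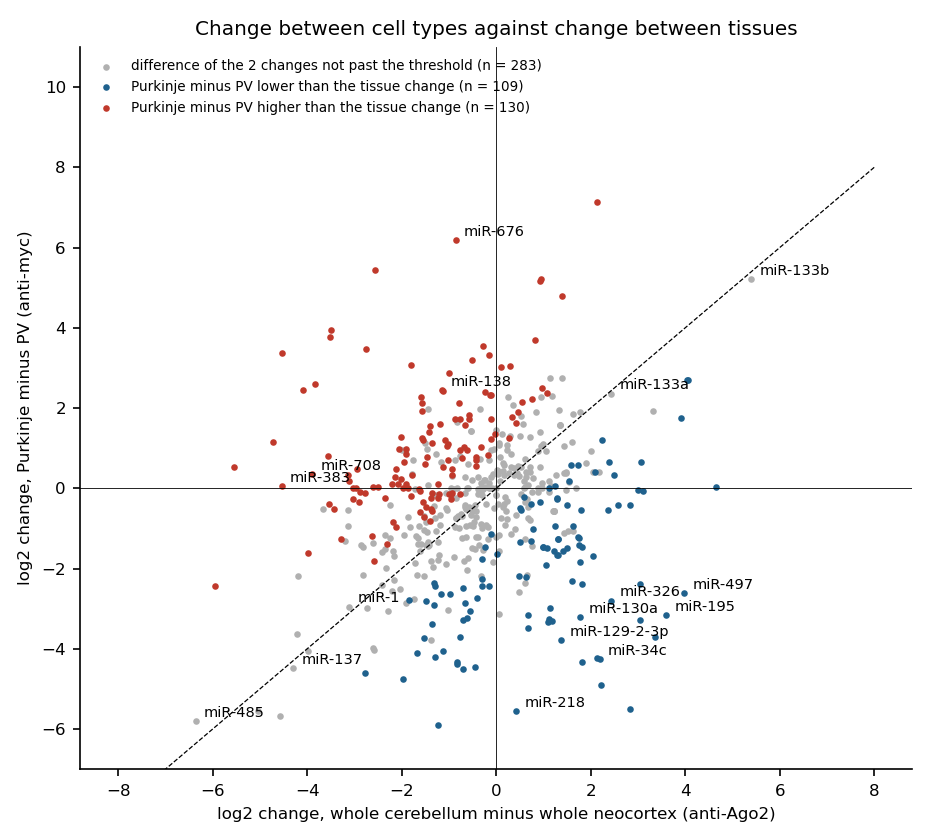
Each point is a tested miRNA, with the log2 change of whole Cerebellum over whole Neocortex on the x axis and that of Purkinje over PV cells on the y axis; the dashed line marks equal changes. Blue (109) and red (130) points lie off the line by more than the threshold, among them miR-195 and miR-497 at lower right and miR-676 at the top, while miR-133b, miR-133a, miR-1 and miR-137 lie near the line.

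Whether both arms of a hairpin moved together was tested with the log2 ratio of the minor to the major arm in 156 hairpins. The ratio differed for 40 (25.6%), 17 with relatively more minor arm in Purkinje cells (10.9%) and 23 with less (14.7%). Among the named hairpins miR-485 had the second largest shift, with 5, 6 and 17 reads of miR-485 in the Purkinje libraries and 1666 and 2301 in PV. Its arms were at 2.42, 2.40 and 5.03 RPM (miR-485) and 205.5, 195 and 111 RPM (miR-485*) in the Purkinje libraries. In PV libraries they were at 155 and 201 RPM and at 171 and 188 RPM. miR-485 thus made up 2.24% ± 1.82 of the hairpin's reads in Purkinje and 49.6% ± 2.99 in PV cells (log2 ratio difference -5.62, adjusted p = 1.95e-05), while miR-485* did not pass (adjusted p = 0.76).

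miR-99a gave a smaller shift of the same kind. Its star arm was at 14.1, 13.2 and 12.1 RPM against 65.3 and 77.4 RPM while the main arm was level, so that the star share was 1.2% ± 0.197 in Purkinje and 6.05% ± 0.185 in PV cells (adjusted p = 3.89e-06). The star share was also lower in Purkinje cells for miR-370 (3.06% ± 2.13 against 10.3% ± 0.227) and miR-34a (0.0524% ± 0.0108 against 0.250% ± 0.0205). It was 0.00780% ± 0.00423 against 0.571% ± 0.0372 for miR-133a, but that share is as uncertain as the main arm it is taken over. The calls of miR-370 and miR-34a were lost without either PV library (adjusted p = 0.0985 and 0.113 for miR-370, 0.093 and 0.121 for miR-34a), and that of miR-370 also without Purkinje replicate 3 (adjusted p = 0.0505). The 5 highest ratios all rested on few reads of 1 arm. For miR-296, miR-672 and miR-1298 at least 1 arm was at or near the 3-read floor in Purkinje libraries, and for miR-137 the star arm had 0 reads there, so the direction was set by the 0.5 added to each arm. The call of miR-133b was lost with 2 added (adjusted p = 0.088), and those of miR-672 and miR-1298 without either PV library (adjusted p from 0.0535 to 0.225). A better covered case, chosen after its values were seen, was miR-544, whose miR-544-3p arm made up 84.7% ± 2.51 of the hairpin's reads in Purkinje and 48.5% ± 4.20 in PV cells (adjusted p = 0.000798).

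The 3p arms of the 2 miR-129 hairpins, chosen after their values were seen, also separated the cell types. miR-129-2-3p made up 23.3% ± 4.23 of their summed reads in Purkinje cells and 86.1% ± 1.17 in PV cells. All other groups lay near PV, from 85.8% ± 1.43 in Cerebellum to 94.6% ± 0.824 in Gad2 cells. miR-129-1-3p itself did not pass between Purkinje (269 ± 75.9 RPM) and PV cells (174 ± 6.71 RPM, adjusted p = 0.139), and miR-129-5p, the arm from both hairpins, was 1.93-fold lower in Purkinje cells.

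**Figure D5:**
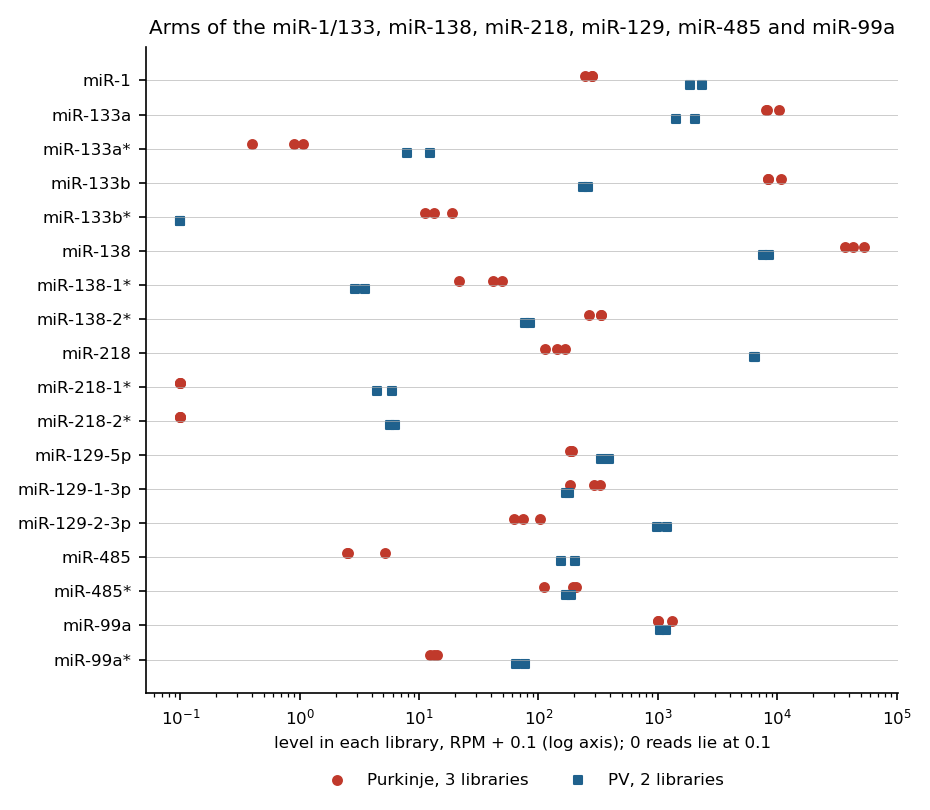
The level of each arm of the miR-1, miR-133a, miR-133b, miR-138, miR-218, miR-129, miR-485 and miR-99a hairpins is plotted in each library as RPM + 0.1 on a log axis, circles for Purkinje and squares for PV, with 0 reads drawn at 0.1. The arms of miR-138 and miR-218 shift together, while miR-485 and miR-99a* shift without their partner arms.

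Summed over names with the same seed, 394 names gave 325 seeds, of which 159 (48.9%) passed, 62 higher (19.1%) and 97 lower (29.8%) in Purkinje cells. Among 43 seeds with at least 2 names 8 were higher and 15 lower. For the miR-15/16 seed AGCAGCA the gain of miR-15b did not offset the losses: the sum of 6 names was 1333 ± 471 RPM in Purkinje and 4794 ± 1139 RPM in PV cells, 3.72-fold lower (adjusted p = 1.62e-06). The seed of miR-130 and miR-301, AGUGCAA, was 2.92-fold lower at 543.9 ± 98.9 against 1577 ± 183 RPM, with miR-301a, its most abundant member in Purkinje cells, not passing by itself (adjusted p = 0.398).

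Abundant seeds changed less. The miR-29 seed AGCACCA was at 166975 ± 1710 against 235033 ± 3445 RPM, 1.41-fold lower (adjusted p = 0.0141). The let-7 seed GAGGUAG of 9 names was at 96085 ± 1992 against 68867 ± 10088 RPM, 1.4-fold higher (adjusted p = 0.0218), so the 8.20-fold gain of let-7i became a small change of the seed. The seed AAAGUGC of miR-17, miR-20a, miR-93 and miR-106b was 2.98-fold higher (1083 ± 183 against 361.7 ± 47.3 RPM), and the seed ACCCGUA of miR-99 and miR-100 1.73-fold higher. The seeds AUGCACC of miR-500 and miR-501-3p (3.71-fold) and AUCCUUG of miR-362-5p and miR-500* (4.24-fold) were higher as well, and their hairpins lie together in an intron of Clcn5 on chromosome X.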

How the data were processed

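Small RNAs of 19 to 24 nt bound to Ago2 were sequenced on an Illumina Genome Analyzer II and, per the submitters' processing notes, mapped with Bowtie to mm9; the version and the handling of reads with several matches are not given in the sources used here. The deposited signal is each library's read count scaled by the authors to a common total. Per the file headers the total is 1000000, but the columns summed to 10000000 each, and division by 10 therefore gave RPM. Whole reads were recovered from the steps of each column (tolerance 0.05 reads). limma 3.58.1 in R 4.3.3 was fitted with a trend to log2(value + 1) of the deposited values, over all 19 libraries in 7 groups. Of 528 names the 522 with at least 1 in 2 libraries were kept. A fold is 2 to the power of the fitted change, which can understate or overstate that of low miRNAs. For miR-221* the fitted log2 change was -2.29, against -4.43 with edgeR. For miR-146a it was -2.75, against -0.91 with edgeR. Adjusted p-values follow Benjamini and Hochberg over all features of a comparison, with calls under 0.05.

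Arm ratios were fitted by limma to log2((minor + 0.5)/(major + 0.5)) of recovered reads, and seeds to their summed values. Alternatives were edgeR 4.0.16, DESeq2 1.42.0, TMM scaling, other filters, thinned reads and single libraries left out. The fits were tested on simulated data. Named are the 12 largest gains and 12 largest losses among calls of 100 RPM or more on average and no overlap, up to 3 called members of each list, the 10 most abundant of each group, and the extremes of the other contrasts and of seeds; others were picked after their values were seen. Members and lists were chosen with earlier results of these data known. 3-read floors cover counting error only, since PCR copies were not marked. Host genes were those of GENCODE M21 (GRCm38) that span the hairpin on the same strand.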

Additional observations from a re-analysis of the deposited data

Results flagged for a closer look

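For 10 of the miRNAs averaging 100 RPM or more in the Purkinje and PV groups, the change between the cell types differed most from the change between whole Cerebellum and whole Neocortex, by a test of the difference itself (limma, adjusted over 522 miRNAs). The log2 difference was -6.76 for miR-195 (adjusted p = 1.39e-12), -5.97 for miR-218 (adjusted p = 1.39e-12), -5.24 for miR-326 (adjusted p = 1.18e-07), -5.16 for miR-129-2-3p (adjusted p = 3.17e-11) and -4.99 for miR-130a (adjusted p = 3.17e-11). It was 7.05 for miR-676 (adjusted p = 1.24e-11), 4.28 for miR-1937b (adjusted p = 2.27e-05), 4.26 for miR-708 (adjusted p = 8.21e-09), 4.23 for miR-1937a (adjusted p = 1.87e-05) and 3.87 for miR-1983 (adjusted p = 1.55e-09). miR-326 was at 39.7, 47.2 and 29.9 RPM in Purkinje and 287 and 249 RPM in PV libraries, against 123 ± 38.3 RPM in Cerebellum and 22.2 ± 4.03 RPM in Neocortex. miR-1983 was at 631 ± 95.8 and 129 ± 8.04 RPM in the cell types and 69.5 ± 9.61 and 209 ± 17.4 RPM in the tissues.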

How the results depend on the processing

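Over all alternatives the number of miRNAs called between Purkinje and PV cells ranged from 186 (without PV replicate 1) to 257 (edgeR), and none of the 239 calls changed sign in any of them. With reads thinned to the shallowest library 216 were called, and 208 of the 239 calls were kept. With only the 5 libraries fitted 212 were called, and only 185 of the 239 were kept. Among the calls lost there were miR-212-3p (adjusted p = 0.0647), miR-92a (adjusted p = 0.0612), let-7a (adjusted p = 0.0613), let-7b (adjusted p = 0.106) and miR-20a (adjusted p = 0.0956). Of the named results under their alternatives, 1658 values stayed as in the main fit, called or uncalled, 63 lost their call and 3 gained one. Arm ratios were the least stable: 52 were called with 2 added to each arm, 31 of them higher, and leaving out 1 library gave 15 to 34 calls, 7 to 14 higher and 8 to 20 lower, with 15 calls without PV replicate 1 and 15 without PV replicate 2. Beside the calls given in the report, those of miR-150 (adjusted p = 0.0783) and let-7i* (adjusted p = 0.0508) were lost without PV replicate 1, those of miR-1188 (adjusted p = 0.0517), miR-30c-1* (adjusted p = 0.193) and miR-181c* (adjusted p = 0.075) without PV replicate 2, and that of miR-669a-3p without either (adjusted p = 0.0567 and 0.074) or without Purkinje replicate 3 (adjusted p = 0.065). Without miR-124 and miR-29b in the total, the difference in the share of the Dlk1-Dio3 domain moved from -0.669 to -3.19 percentage points. The contrast against the tissues gave 197 to 259 calls, and TMM scaling moved its split from 130 higher and 109 lower to 115 and 124.

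Replicates 1 and 2 of both groups share a number, and the correlations of their deviations were 0.0989 and -0.0332. With 2 PV libraries the PV deviations mirror each other, so these correlations cannot show whether the numbers carry a shared batch. A fit with the replicate block gave 230 calls (98 higher, 132 lower), 243 against the tissues, 28 arm ratios (12 higher, 16 lower) and 154 seeds (61 higher, 93 lower). Depth limits names under 1.45 RPM in Purkinje libraries: 43 tested names had 0 reads there and 17 had 0 reads in PV libraries.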

Other observations

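Some abundant miRNAs outside the naming rule differed as well, and were picked after their values were seen. miR-652, from an intron of Tmem164 on chromosome X, was at 2736, 3247 and 3469 RPM in Purkinje libraries and at 594 and 761 RPM in PV libraries (4.66-fold higher, limma adjusted p = 8.63e-09). miR-340-5p, from an intron of Rnf130, was 3.71-fold higher at 2013 ± 128 against 543 ± 69.1 RPM. miR-185, from an intron of Tango2 on chromosome 16, was 7.30-fold lower at 221, 236 and 295 RPM against 1719 and 1915 RPM (adjusted p = 5.87e-09). miR-130b was 18.3-fold lower at 10.3 ± 4.60 against 179.5 ± 10.4 RPM. miR-204 was at 1472 ± 239.7 RPM in whole Cerebellum and 58.4 ± 8.72 RPM in whole Neocortex but near-equal in the cell types (log2 change 0.03, interval -0.64 to 0.71). miR-383 and miR-488 were also near-equal in Purkinje and PV cells, with log2 changes of 0.06 (interval -0.61 to 0.73) and 0.11 (interval -0.38 to 0.59).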
